A study of Mus musculus with 18 samples.

Results

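The Wnt feedback genes are 10 genes whose transcription is used as a readout of canonical Wnt signalling, or whose products dampen it. They are Axin2, Apcdd1, Notum, Lef1, Nkd1, Nkd2, Rnf43, Znrf3, Sp5 and Dkk3, chosen by name, and all 10 are among the 38046 genes of the expression table. In canonical Wnt signalling a secreted ligand binds Frizzled and LRP receptors, the complex that degrades β-catenin is held back, and β-catenin joins TCF/LEF factors on DNA. Part of what these factors switch on restrains the pathway again: AXIN2 rebuilds the degradation complex, ZNRF3 and RNF43 remove Frizzled from the membrane, NKD1 and NKD2 act on Dishevelled, and NOTUM strips the lipid from Wnt ligands. In the oligodendrocyte lineage, sustained Wnt signalling is known for delaying the step from progenitor to myelinating cell.

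RNA was sequenced from mouse oligodendrocyte progenitors (OPCs), which divide and mature into oligodendrocytes, the myelin-forming cells of the brain. The cells were clonal OPC lines derived from primary neural stem cells, and each replicate is 1 clone: D7, D3 and E8 served as controls, and 3F, D6 and 7F lack Thap1. THAP1 binds DNA through a zinc finger, and its part in oligodendrocyte development is the subject of the study. How the null allele was made, and the age and strain of the source animals, are not given in the sources used here. Each clone gave 1 library at the OPC stage (day 0, growth medium with PDGF-AA) and 1 each after 2 and 4 days in differentiation medium with the thyroid hormone T3 at 40 µg/ml (DIV2 and DIV4). That makes 6 groups of 3 libraries and 18 libraries in all.

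Levels are given as rescaled TPM: the authors' TPM divided by 1 factor per library so that most genes keep the same level across libraries. TPM is a measure corrected for transcript length that has the same total in every library. The rescaling matters here because 3 noncoding features held 64.8% to 88.0% of the TPM in the control OPC libraries and 0.359% to 34.8% in the other 15. The 34.8% was in null OPC D6, against 0.789% and 1.06% in null OPC 3F and 7F and at most 3.17% at DIV2 and DIV4. Coding transcripts held 5.05% to 9.00% of the deposited TPM in the control OPC libraries and 19.1% to 38.8% in the others, and this composition cannot be told apart from the control OPC group itself. Coding transcripts of Thap1 lay at 1.91 to 4.39 rescaled TPM in the control libraries and at 0.197 to 0.776 in the null libraries, so every library matched its genotype label. The OPC marker Pdgfra lay at 72.0 to 104 rescaled TPM in the 6 OPC libraries. All 8 oligodendrocyte marker genes rose in control clones from OPC to DIV2 and DIV4 (limma, below), with a median log2 change of 4.59 and 5.49. Control D3 stood apart at the OPC stage, with the proliferation gene Mki67 at 1.44 rescaled TPM against 25.8 and 31.5 in the other control clones. Control D7 stood apart at DIV4, with the astrocyte gene Gfap at 0.176 rescaled TPM against 80.0 to 238 in the other 5 libraries.

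Promoter sequence shows one way in which the 6 of the 10 genes with a RefSeq window are not alike. TCF/LEF factors bind words of the form CTTTGAT, and the windows of Axin2, the highest-ranked feedback gene by number of significant changes below, and Sp5, the least abundant, are printed for contrast. Each runs from 250 bases before to 50 bases after the RefSeq start, 5′ to 3′ (GRCm38.p6), and capitals mark CTTTGA or CTTTGT on either strand. The Axin2 window is chr11:108920099-108920398 (+ strand) and the Sp5 window is chr2:70474673-70474972 (+ strand).
Axin2: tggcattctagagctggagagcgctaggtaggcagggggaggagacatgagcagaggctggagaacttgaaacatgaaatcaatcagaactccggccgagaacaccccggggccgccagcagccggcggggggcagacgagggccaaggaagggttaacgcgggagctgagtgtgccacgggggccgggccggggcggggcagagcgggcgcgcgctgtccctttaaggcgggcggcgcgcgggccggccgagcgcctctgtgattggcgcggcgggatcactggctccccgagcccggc
Sp5: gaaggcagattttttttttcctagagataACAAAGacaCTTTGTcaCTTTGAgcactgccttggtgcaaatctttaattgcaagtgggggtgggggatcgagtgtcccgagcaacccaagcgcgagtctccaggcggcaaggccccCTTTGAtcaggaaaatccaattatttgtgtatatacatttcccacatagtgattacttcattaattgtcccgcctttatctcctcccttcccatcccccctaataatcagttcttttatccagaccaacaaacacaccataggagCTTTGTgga
The Sp5 window held CTTTGA 2 times, 1 of them extended to CTTTGAT, and CTTTGT 3 times, whereas the Axin2 window, at 70.0% G and C, held none of these words. Over all 32851 RefSeq windows of this length, 3.73% held CTTTGAT, 16.0% held CTTTGA (which includes CTTTGAT) and 18.7% held CTTTGT on either strand. RefSeq windows were matched for 6 of the 10 genes (Sp5, Lef1, Nkd1, Rnf43, Axin2 and Nkd2), 10 windows in all. Apart from Sp5, only 1 of the 4 Lef1 windows held any of the words, with CTTTGA 2 times and CTTTGT 1 time. A match is a description of the letters and not a binding site, and sequence outside these windows was not searched.

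The 10 genes fell into 2 sets by level. Axin2, Apcdd1, Znrf3 and Nkd1 reached means over the 18 libraries of 3.24, 3.39, 3.37 and 1.83 rescaled TPM, and these 4 passed the filter of a mean of at least 1. All 4 lie below the median of 6.98 over the 12462 genes that passed it. The other 6 genes did not exceed 0.569 rescaled TPM in any library and were tested only in an alternative fit with no filter. Between genes, the means of Axin2, Apcdd1 and Znrf3 differed by less than the spread of each across libraries, which ran from 1.03 to 5.36 for Axin2, from 0.598 to 8.30 for Apcdd1 and from 1.96 to 7.93 for Znrf3.

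**Figure D1:**
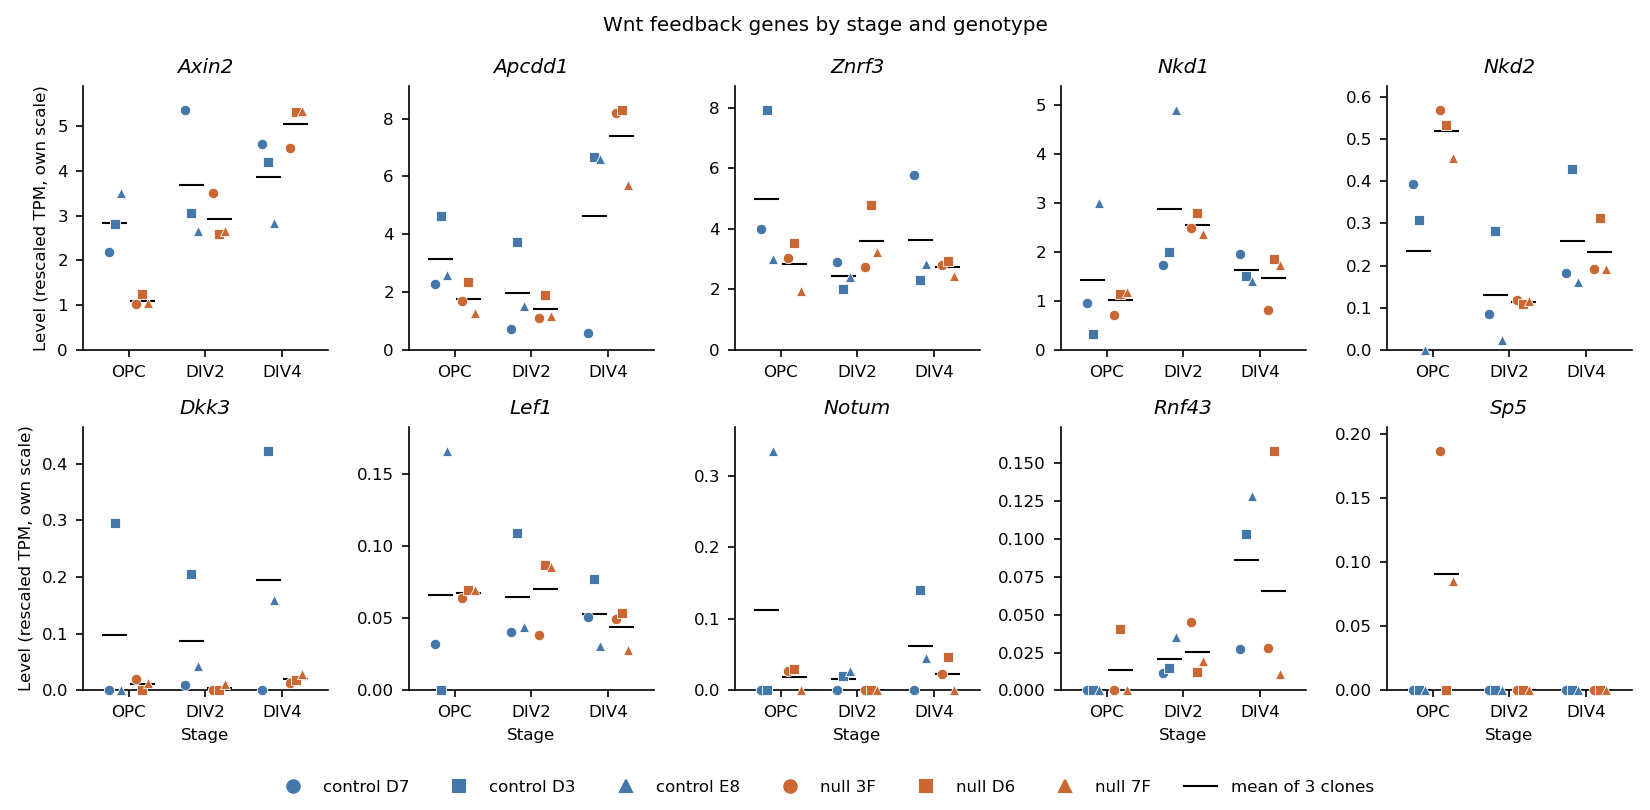
Level of each of the 10 Wnt feedback genes in rescaled TPM (vertical axis, its own linear scale in each panel) at OPC, DIV2 and DIV4. Each point is 1 clone (blue control, orange null, shape by clone) and the black line is the mean of 3 clones. Axin2, Apcdd1, Znrf3 and Nkd1 reach several rescaled TPM, while the other 6 genes stay at or below 0.569.

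Among the negative regulators that act in the cytoplasm, Axin2 gave the clearest pattern. AXIN2 is the inducible counterpart of AXIN1, the scaffold of the β-catenin degradation complex, and its gene lies on chromosome 11 at 108920349 to 108950783 (+ strand, GRCm38). At the OPC stage Axin2 lay at 2.18, 2.81 and 3.51 rescaled TPM in control D7, D3 and E8 and at 1.03, 1.24 and 1.04 in null 3F, D6 and 7F. At DIV2 the values were 5.36, 3.06 and 2.65 in the control clones and 3.50, 2.60 and 2.65 in the null clones. At DIV4 they were 4.59, 4.19 and 2.83 in the control clones and 4.51, 5.31 and 5.33 in the null clones. The null OPC libraries were thus the lowest of all 18, the 3 null clones rose at each step, and the genotypes overlapped at DIV2 and at DIV4. In the control clones D7 rose from OPC to DIV4, D3 rose less, and E8 ended below its OPC value.

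In the null clones Axin2 rose with differentiation. Its mean went from 1.10 ± 0.121 (SD, n = 3) at OPC to 2.92 ± 0.502 at DIV2 and 5.05 ± 0.468 at DIV4, a 4.59-fold rise from OPC to DIV4. The log2 change to DIV2 was 0.89 (SE 0.21, adjusted p = 0.00526) and the change to DIV4 was 1.52 (SE 0.21, 95% interval 1.08 to 1.97, adjusted p = 9.88e-05), by limma with Benjamini-Hochberg adjustment over all 12462 genes. The change was positive in 3 of 3 null clones at each time, and the DIV4 rise was called in all 15 alternative analyses that gave it a value. The DIV2 rise was lost without null 3F (adjusted p = 0.0914) and without null 7F (0.0570). The further step from DIV2 to DIV4 was 0.63 (SE 0.21) and was not called (adjusted p = 0.132), although the groups did not overlap.

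In the control clones the rise of Axin2 depended on which transcripts were counted. Over all its transcripts, control Axin2 was 2.84 ± 0.665 (SD, n = 3) at OPC, 3.69 ± 1.46 at DIV2 and 3.87 ± 0.924 at DIV4. The log2 changes from OPC were 0.26 (SE 0.21, adjusted p = 0.356) and 0.34 (SE 0.21, adjusted p = 0.225), neither called by limma; without control E8 the DIV4 change was 0.63 and was called (adjusted p = 0.0468). Axin2-201, the full-length coding transcript and the most abundant one with 46.0% of the gene's total, behaved otherwise. It lay at 0.865, 0.434 and 0.662 rescaled TPM in control OPC, at 2.45, 1.73 and 1.22 in control DIV2 and at 2.17, 1.62 and 1.55 in control DIV4 (D7, D3, E8 in each case), so the OPC libraries were lower than every later one. On Axin2-201 alone the control clones changed by 0.74 (SE 0.20, adjusted p = 0.0106) to DIV2 and by 0.75 (SE 0.20, adjusted p = 0.0114) to DIV4. The null clones changed on that transcript by 0.89 (adjusted p = 0.00431) and 1.42 (adjusted p = 0.000134).

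**Figure D2:**
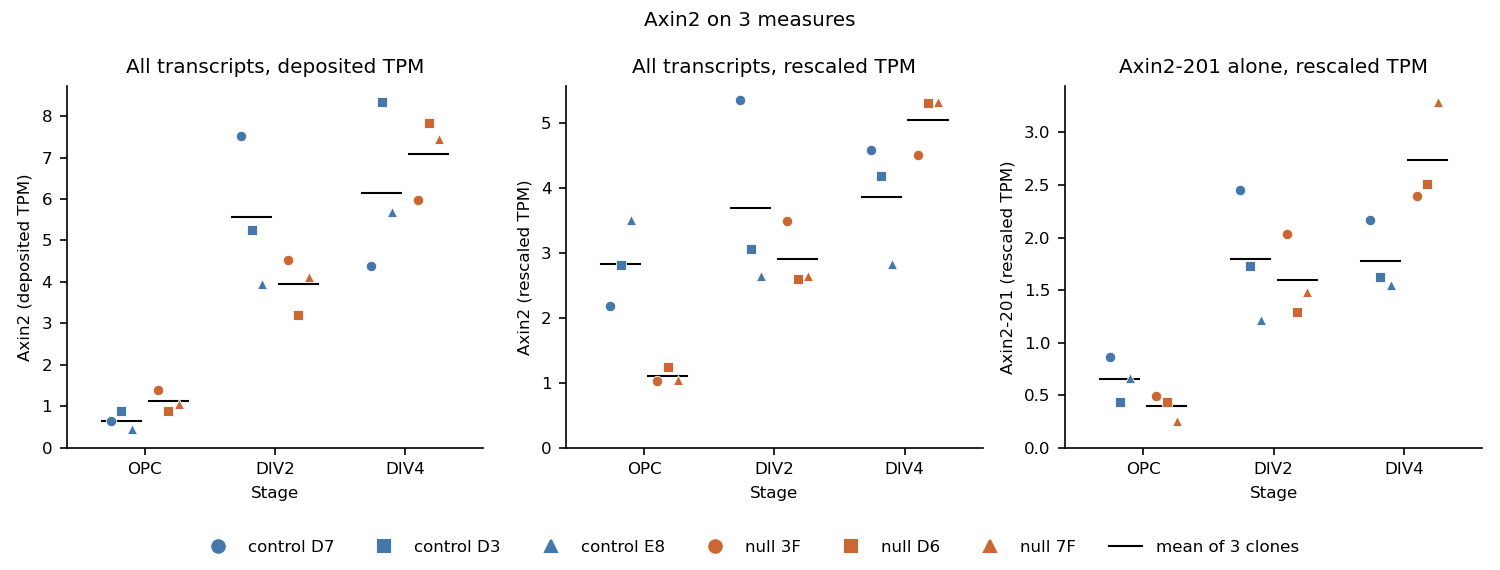
Axin2 by stage on 3 measures: all transcripts in deposited TPM (left), all transcripts in rescaled TPM (centre) and the transcript Axin2-201 alone in rescaled TPM (right). Points are clones and lines are means of 3; the control OPC libraries are below the null ones only on the left, above them in the centre, and overlap them on the right.

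The genotype difference in Axin2 at the OPC stage depended on the transcripts counted and on the scaling. Over all transcripts Axin2 was lower in null than in control OPCs by a log2 difference of -0.86 (SE 0.21, 95% interval -1.30 to -0.41, adjusted p = 0.0163), with means of 1.10 and 2.84 rescaled TPM and no overlap between the groups. Of 15 alternatives, 8 kept this call. In deposited TPM the sign was reversed, at 0.36 (adjusted p = 0.209), on a scale on which the median of all genes was 1.50 higher in null than in control OPCs. With Axin2-201 alone the difference was -0.24 (adjusted p = 0.455), and with coding transcripts only, set to equal coding totals, it was -0.50 (adjusted p = 0.125). Mean Axin2-201 was 0.654 rescaled TPM in control and 0.395 in null OPCs, so low that adding 1 before the log shrinks the difference. The coding-only setting also changes the scale: Znrf3, whose listed transcripts are all coding, went from -0.57 to -0.25 with it. The call was also lost on the 6 OPC libraries alone (adjusted p = 0.143) and without any 1 null clone (0.0566 to 0.124).

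**Figure D3:**
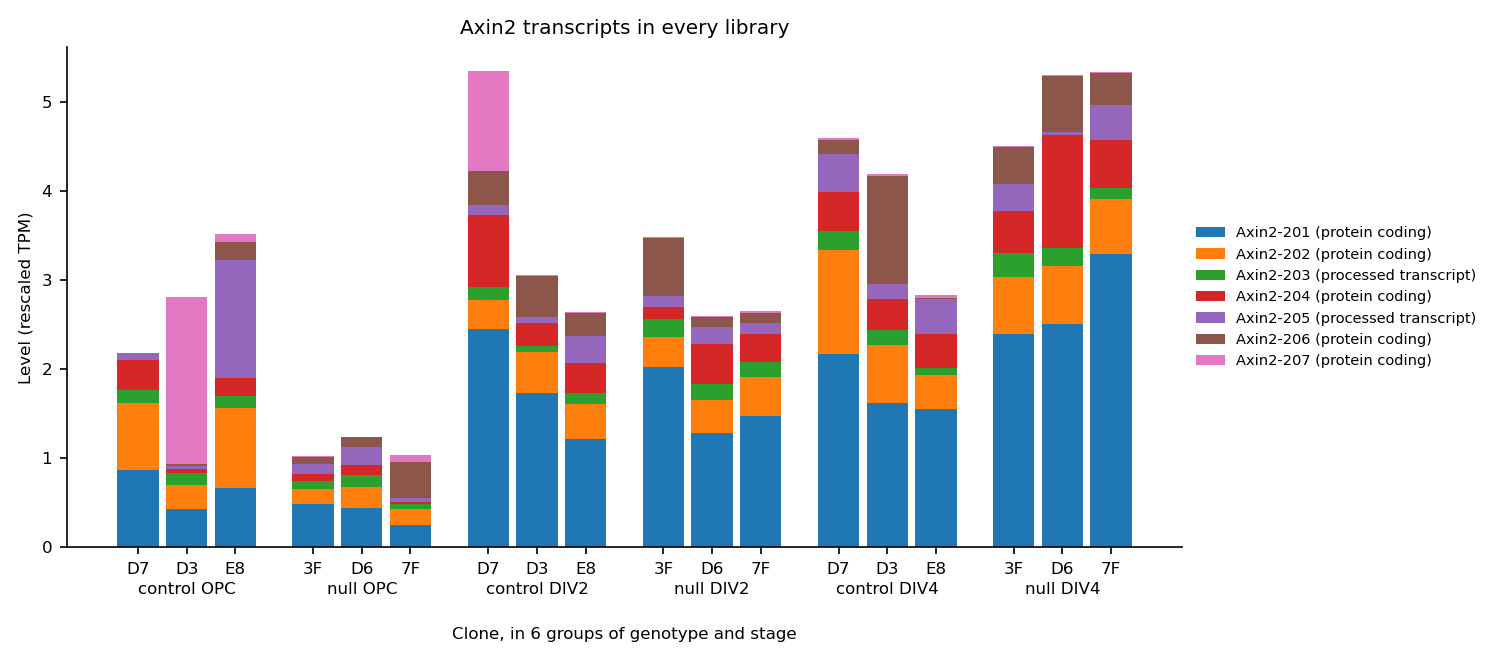
Stacked level of the 7 Axin2 transcripts in rescaled TPM (vertical axis) in each of the 18 libraries, grouped by genotype and stage. In control OPC D3 most of the bar is the short Axin2-207, and in control OPC E8 the largest block is the noncoding Axin2-205.

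The transcripts behind the control OPC values differed between clones. In control D3 the short transcript Axin2-207, whose deposited length is 477, made up 1.87 of the 2.81 rescaled TPM. In control E8 the noncoding transcript Axin2-205 made up 1.32 of 3.51. Elsewhere Axin2-207 reached 1.12 in control D7 at DIV2 and otherwise stayed between 0 and 0.0819. Control OPC levels were low before rescaling, with a mean of 0.657 deposited TPM over all Axin2 transcripts. Rescaling divided deposited TPM by 0.317 in control OPC D3 and by 0.125 in E8, against 0.723 to 1.36 in null OPCs. Whether transcript use differed between clones beyond the error of such low levels was not tested. Axin2 also overlaps the antisense gene Gm11670 (at most 0.656 rescaled TPM), and whether strand was used in the quantification is not given in the sources used here, so reads of the pair may be shared.

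NKD1 and NKD2 are the other cytoplasmic feedback proteins, antagonists that bind Dishevelled. Nkd1 lay at 0.967, 0.334 and 3.00 rescaled TPM in control OPCs (D7, D3, E8) and at 0.718, 1.15 and 1.18 in null OPCs (3F, D6, 7F). At DIV2 it lay at 1.73, 2.00 and 4.90 in control and 2.50, 2.80 and 2.36 in null clones, and at DIV4 at 1.95, 1.52 and 1.41 in control and 0.810, 1.85 and 1.74 in null clones. In the null clones every DIV2 value was above every OPC and DIV4 value, and in the control clones the groups overlapped. The null change from OPC to DIV2 was 0.83 (SE 0.35, adjusted p = 0.0983) and was not called, although 5 of 15 alternatives called it. Null and control did not differ detectably at any stage, with log2 differences of -0.13 (95% interval -0.89 to 0.63) at OPC, -0.04 (-0.79 to 0.72) at DIV2 and -0.12 (-0.87 to 0.64) at DIV4.

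Nkd2 was far lower than its paralogue. It lay at 0.569, 0.534 and 0.454 rescaled TPM in null OPCs and at 0.119, 0.109 and 0.116 in null DIV2 cultures, with no overlap. Control values ran from 0 to 0.429. With no filter on level, the null fall from OPC to DIV2 was called (log2 change -0.45, SE 0.12, adjusted p = 0.0259), in a comparison in which 11.1% of 30396 genes were called. No other gene of the 6 below the filter was called in any of the 11 comparisons in that unfiltered fit.

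At the membrane, ZNRF3 and RNF43 are ubiquitin ligases that remove Frizzled receptors, and APCDD1 is a membrane glycoprotein that binds Wnt and LRP. Znrf3 (chromosome 11, 5276324 to 5444847, - strand, GRCm38) lay at 3.99, 7.93 and 3.02 rescaled TPM in control OPCs and at 3.05, 3.54 and 1.96 in null OPCs. At DIV2 it lay at 2.92, 2.00 and 2.41 in control and 2.74, 4.78 and 3.24 in null clones, and at DIV4 at 5.77, 2.31 and 2.85 in control and 2.81, 2.94 and 2.46 in null clones. The genotypes overlapped at every stage and no comparison was called. The control change from OPC to DIV2 was -0.72 (SE 0.30, adjusted p = 0.0773) with groups that did not overlap; without the control D3 OPC library, which holds the highest value, it was -0.39 (adjusted p = 0.298). Its partner Rnf43 did not exceed 0.158 rescaled TPM, was listed at 0 in 5 libraries, and had its 3 highest values at DIV4, in null D6 (0.158), control E8 (0.128) and control D3 (0.103).

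Apcdd1, on chromosome 18, had the widest range of the 10 genes. It lay at 2.27, 4.62 and 2.58 rescaled TPM in control OPCs and 1.68, 2.35 and 1.27 in null OPCs. At DIV2 it lay at 0.709, 3.72 and 1.52 in control and 1.11, 1.91 and 1.19 in null clones, and at DIV4 at 0.598, 6.66 and 6.61 in control and 8.20, 8.30 and 5.69 in null clones. The 5 DIV4 libraries other than control D7 were thus the highest of the 18, and control D7 at DIV4 was the lowest. In the null clones Apcdd1 rose from 1.77 ± 0.544 (SD, n = 3) at OPC to 7.40 ± 1.48 at DIV4, a log2 change of 1.60 (SE 0.50, adjusted p = 0.0232), positive in 3 of 3 clones. That call was lost without any 1 null clone (adjusted p 0.111 to 0.145) and with no filter (0.0585). From DIV2 to DIV4 the null change was 1.80 (SE 0.50, adjusted p = 0.0783); with the clone as a replicate block it was called (adjusted p = 0.0167), as it was without control D7 (0.00340), without control D3 (0.0410) and on the compared libraries only (0.00594). The control change from OPC to DIV4 was 0.17 (SE 0.50, adjusted p = 0.826), and 0.77 without D7 (adjusted p = 0.117). Null and control at DIV4 differed by 0.87 (95% interval -0.20 to 1.95, adjusted p = 0.357), and by 0.12 without D7 (adjusted p = 0.871).

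**Figure D4:**
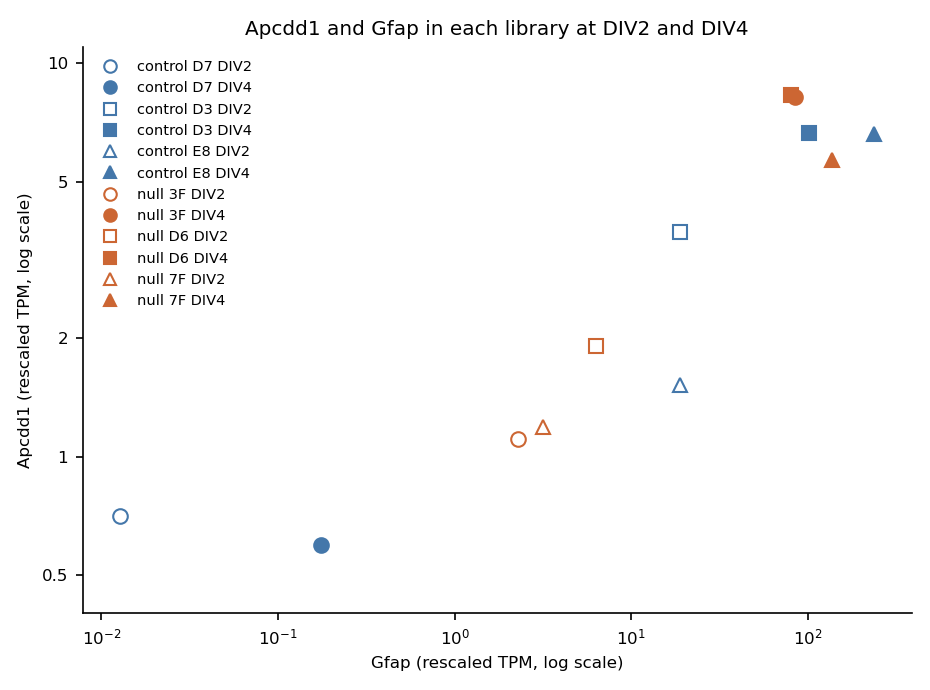
Apcdd1 against the astrocyte gene Gfap, both in rescaled TPM on log axes, in the 12 libraries at DIV2 (open) and DIV4 (filled), blue for control and orange for null, shape by clone. Control D7 is lowest on both axes at both times, and the other 5 DIV4 libraries sit together at 5.69 to 8.30 Apcdd1 and 80.0 to 238 Gfap.

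Of 6 astrocyte markers Gfap, which encodes an intermediate filament, was set beside Apcdd1 after its values were seen. Gfap lay at 0.0128, 18.9 and 19.0 rescaled TPM in the DIV2 cultures of control D7, D3 and E8 and at 0.176, 102 and 238 in those at DIV4. In null 3F, D6 and 7F it lay at 2.28, 6.29 and 3.18 at DIV2 and at 84.1, 80.0 and 138 at DIV4. Over these 12 libraries, which share clones, Pearson's r between Apcdd1 and Gfap on the log2(rescaled TPM + 1) scale was 0.94, given as a description. The summed level of 6 astrocyte markers ran from 13.5 to 422 in control and 185 to 286 in null DIV4 libraries, against 17.3 to 70.7 and 42.1 to 46.0 at DIV2. The other markers did not all follow Gfap. Gja1 was listed at 0 in 14 of 18 libraries. Aqp4, the astrocyte water channel, lay at 3.06 and 6.71 in control D3 and E8 at DIV4, lower still in control D7 than in the null clones, and at 0.137, 0.163 and 0.199 in null DIV4 libraries, and Slc1a2, a glutamate transporter, at 0.117, 31.1 and 31.4 in control and 3.78, 7.04 and 2.63 in null DIV4 libraries. Both were thus lower in every null DIV4 library, where Apcdd1 was high, than in control D3 and E8. Conversely, the 8 oligodendrocyte markers summed to 11367 in control D7 at DIV4 and to 1095 to 2045 in the other 5 DIV4 libraries. The part of these cell-type differences in the Apcdd1 result was not tested; in bulk RNA, more cells of a type and more RNA per cell cannot be told apart.

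The secreted regulators were near 0. NOTUM is the carboxylesterase that inactivates Wnt ligands, and Notum was listed at 0 in 9 libraries and reached 0.335 rescaled TPM in control OPC E8. Dkk3, a divergent member of the Dickkopf family, was listed at 0 in 6 libraries. Its 5 highest values were all in control clones: D3 at OPC, DIV2 and DIV4 (0.296, 0.206 and 0.423), E8 at DIV4 (0.159) and E8 at DIV2 (0.0432). The null clones did not exceed 0.0286. With 33.0% of its 31-base words shared with other genes, Notum is uncertain.

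In the nucleus, LEF1 is a TCF/LEF factor and SP5 a zinc-finger repressor, both known as Wnt targets in many tissues. Lef1 ran from 0 to 0.166 rescaled TPM over the 18 libraries, and 61.0% of its total came from Lef1-205, a transcript with a retained intron; it shares 14.7% of its 31-base words with other genes and is uncertain. Among the 6 genes with a promoter window, that of Sp5 held the most TCF/LEF words. Sp5 was listed at 0 in 16 of 18 libraries and at 0.187 and 0.0852 in null 3F and 7F at the OPC stage. No depth is known for these libraries, so a listed 0 sets no limit on the true level.

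Counted over the list, few tests passed. For null against control, 1 of the 4 tested genes was called at OPC (Axin2, lower), where 5.95% of all genes were called lower and 6.03% higher. None was called at DIV2 or at DIV4, where 2.80% and 4.82% of all genes were called, and none had an unadjusted p under 0.05 in limma. In the null clones 1 of 4 was called from OPC to DIV2 (Axin2, 27.9% of all genes), 2 of 4 from OPC to DIV4 (Axin2 and Apcdd1, both higher, 33.3% of all genes), and none from DIV2 to DIV4 (2.10% of all genes), where Axin2 and Apcdd1 had an unadjusted p under 0.05. In the control clones none was called by limma from OPC to DIV2 (35.0% of all genes; Znrf3 had an unadjusted p under 0.05), from OPC to DIV4 (32.3%) or from DIV2 to DIV4 (0.233%), the last 2 with 0 at an unadjusted p under 0.05. In deposited TPM, by contrast, 3 and 4 of the 4 genes were called higher at DIV2 and at DIV4 than at OPC in control clones, where 83.6% and 88.1% of all genes were called and the median of all genes rose by 1.96 and 2.01.

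The median log2 change of the 4 genes in null against control was -0.57 at OPC, -0.12 at DIV2 and 0.11 at DIV4, beside 0.04, 0.00 and -0.01 over all genes. In the null clones the median was 0.54 from OPC to DIV2 and 0.90 from OPC to DIV4, beside -0.02 and -0.01 over all genes. In the control clones it was -0.15 and 0.21, beside 0.02 and 0.03. Without 1 clone the control median to DIV2 ran from -0.24 (without D7) to 0.03 (without D3), and that to DIV4 was as low as 0.10 (without D7). The genotype medians ran from -0.71 (without null D6) to -0.41 (without control D3) at OPC. They ran from -0.13 to 0.03 (without control E8) at DIV2 and from -0.01 (without control E8) to 0.24 (without null 3F) at DIV4. In deposited TPM the genotype median at OPC changed sign, to 0.66, beside 1.50 over all genes. On that scale the control medians were 1.53 to DIV2 and 1.74 to DIV4, beside 1.96 and 2.01 over all genes.

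**Figure D5:**
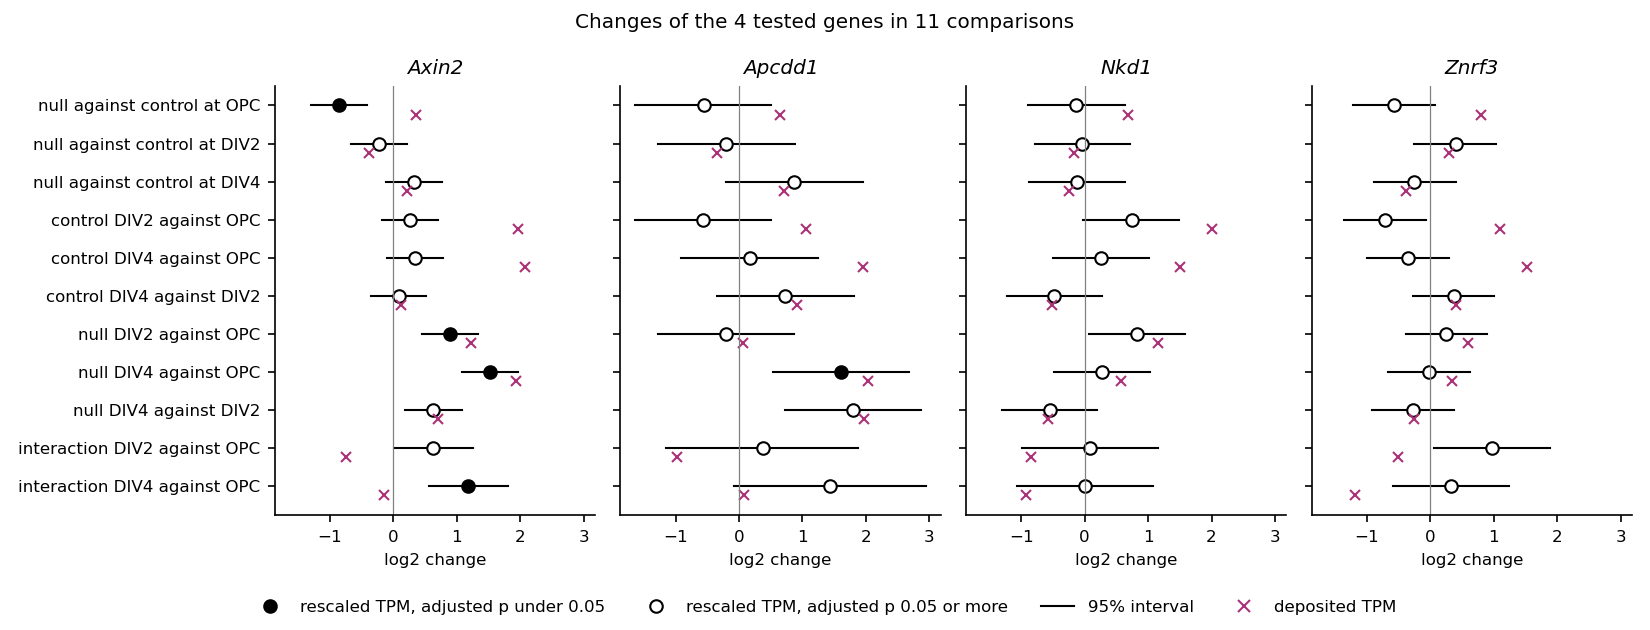
Log2 change of the 4 tested genes in the 11 comparisons (rows), on log2(rescaled TPM + 1). Circles are estimates with their 95% interval, filled where the adjusted p is under 0.05, and crosses are the same change in deposited TPM. Filled circles appear for Axin2 in 4 rows and Apcdd1 in 1, and the crosses lie far from the circles in the rows that involve control OPCs.

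Whether differentiation changed the genes differently in the 2 genotypes was tested as an interaction, with the control clones' change taken from that of the null clones. For Axin2 from OPC to DIV4 it was 1.18 (SE 0.29, 95% interval 0.56 to 1.81, adjusted p = 0.0458), the only call among the 4 genes, in a comparison in which 2.78% of all genes were called. The clones' own log2 changes were 1.44, 1.49 and 1.64 in null 3F, D6 and 7F and 0.81, 0.45 and -0.24 in control D7, D3 and E8, so they did not overlap. With the clone as a replicate block the call was lost (adjusted p = 0.0617), and 5 of 15 alternatives kept it. On Axin2-201 alone the interaction was 0.67 (adjusted p = 0.206), and in deposited TPM it was -0.15 (adjusted p = 0.717), where the median of all genes was -1.68. From OPC to DIV2, where 0.465% of all genes were called, none of the 4 was called by limma, and Axin2 (0.63, adjusted p = 0.357) and Znrf3 (0.97, adjusted p = 0.329) had an unadjusted p under 0.05.

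The 4 tested genes did not move as a block. Over the 18 libraries, which share clones, Pearson's r on the log2 scale was 0.32 for Axin2 with Apcdd1, 0.26 for Axin2 with Nkd1 and 0.01 for Axin2 with Znrf3. It was -0.33 for Apcdd1 with Nkd1, -0.32 for Nkd1 with Znrf3 and -0.14 for Apcdd1 with Znrf3. Over the 12 libraries at DIV2 and DIV4 the same values were 0.23, -0.54 and -0.01 for Axin2 with Apcdd1, Nkd1 and Znrf3, and -0.57, 0.07 and -0.47 for the other 3 pairs in the same order. The genes most like Axin2 over the 18 libraries, among 12458 ranked by Pearson's r, were Prkacb (0.925), a catalytic subunit of protein kinase A, Kctd13 (0.914), Pptc7 (0.906), Socs5 (0.902) and Pcdh1 (0.898). Pptc7 shares 20.8% of its 31-base words with other genes and is uncertain.

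The rest of the Wnt pathway was read from 7 lists of 100 genes (ligands, ligand secretion, receptors, secreted modulators, cytoplasmic and nuclear components, other targets), of which 49 passed the filter. Between genotypes, 1 of the 49 was higher and 7 lower in null at OPC (16.3%), 2 higher and 1 lower at DIV2 (6.12%), and 2 higher and 2 lower at DIV4 (8.16%). Over all genes 6.03% were higher and 5.95% lower at OPC, 2.80% were called at DIV2 and 4.82% at DIV4. The median of the 49 was -0.15, 0.00 and -0.03 in turn, beside 0.04, 0.00 and -0.01 over all genes.

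Among the receptors, Fzd1 was lower in null OPCs (log2 difference -1.23, SE 0.33, adjusted p = 0.0265), Fzd8 lower at DIV2 and Fzd3 lower at DIV4. Differences of pathway genes at OPC, that of Fzd1 included, depend on the rescaling. In deposited TPM the median of all genes was 1.50 higher in null than in control OPCs. Fzd3, a Frizzled receptor, lay at 24.1, 22.8 and 19.6 rescaled TPM in the DIV4 cultures of control D7, D3 and E8 and between 8.86 and 10.3 in those of null 3F, D6 and 7F, so the groups did not overlap. Its log2 difference was -1.11 (SE 0.15, adjusted p = 0.000713), called in all 16 alternatives, and its interaction from OPC to DIV4 was -1.26 (SE 0.21, adjusted p = 0.0101). Fzd8, another Frizzled receptor, rose in both genotypes from under 1.11 at OPC and was lower in null at DIV2, at 6.29, 6.72 and 6.24 against 12.9, 10.3 and 15.0 (log2 difference -0.88, SE 0.19, adjusted p = 0.0235). The Fzd8 call was lost without any 1 null clone (adjusted p 0.0808 to 0.185), and at DIV4 its difference was -0.05 (95% interval -0.47 to 0.36).

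Upstream of the receptors, Wls, the carrier that brings Wnt ligands to the cell surface, was higher in null OPCs, at 9.58, 11.3 and 13.1 rescaled TPM against 6.14, 5.79 and 2.67 (log2 difference 1.12, SE 0.26, adjusted p = 0.0138), and overlapped control at DIV2 and DIV4. The Wls call was lost without null D6 (adjusted p = 0.0554) and without null 7F (0.131). Of 19 Wnt ligands 2 passed the filter and none was called between genotypes by limma; Wnt7b, the highest, lay at 0.477, 2.41 and 8.42 in control and 6.07, 4.64 and 3.38 in null clones at DIV4. Wnt3, named here after its values were seen and too low for the reported fit, lay at 4.34, 0.576 and 0.560 in control clones and 0.0413, 0.248 and 0.0463 in null clones at DIV4. Kremen1, a receptor for Dickkopf proteins, was higher in null clones at DIV2, 6.44, 4.81 and 4.10 against 1.60, 2.03 and 1.73 (log2 difference 1.12, adjusted p = 0.0236), and at DIV4, 8.23, 9.78 and 6.63 against 2.37, 3.28 and 3.56 (1.18, adjusted p = 0.0149). The DIV2 call was lost without control D7 (adjusted p = 0.0572) and without any 1 null clone (0.0604 to 0.199), and the DIV4 call without control D7 (0.0515), null 3F (0.0707) or null D6 (0.0911).

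Downstream, none of the 16 cytoplasmic components tested was called between genotypes at DIV2 or DIV4, where 2.80% and 4.82% of all genes were called. At OPC 5 of the 16 were lower in null clones (Apc2, Axin1, Btrc, Csnk1e and Dvl1), beside 5.95% of all genes. Axin1, the constitutive relative of Axin2, lay at 7.77, 7.15 and 12.3 rescaled TPM in control and 5.05, 5.65 and 5.95 in null OPCs (log2 difference -0.59, SE 0.15, adjusted p = 0.0230). In deposited TPM Axin1 lay the other way, at 2.27, 2.27 and 1.54 in control and 6.87, 4.08 and 6.06 in null OPCs, so its direction, as that of Axin2, rests on the rescaling. The most abundant component, Csnk1a1, which encodes the priming kinase of β-catenin, was not called, with -0.40 (95% interval -0.79 to -0.02, adjusted p = 0.156) at OPC. Among nuclear factors Tcf7l2, the TCF factor known to peak in newly formed oligodendrocytes, was lower in null clones at DIV4, at 1.08, 1.38 and 0.595 against 6.27, 3.82 and 1.89 (log2 difference -1.23, SE 0.29, adjusted p = 0.0253). Its call was lost without control D7 (adjusted p = 0.0571), without control D3 (0.0557) and without any 1 null clone (0.0538 to 0.223). The oligodendrocyte markers summed to 1959.9 to 11367 in control and 1095 to 2039 in null DIV4 libraries, and their part in the Tcf7l2 result was not tested.

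Of 12 other Wnt targets 8 were tested, and Cd44, an adhesion receptor, was the only 1 called between genotypes at DIV2 or DIV4. It was higher in null clones at DIV2, 2.68, 0.982 and 1.72 rescaled TPM against 0.164, 0.316 and 0.310 (log2 difference 1.10, SE 0.28, adjusted p = 0.0476), and at DIV4, 4.08, 4.03 and 3.43 against 0.194, 1.57 and 1.20 (1.36, SE 0.28, adjusted p = 0.0128). Without any 1 null clone the DIV4 call was lost (adjusted p 0.0526 to 0.114) and so was the DIV2 call (0.0551 to 0.409), which was also lost without control D3 (0.0850) or E8 (0.136). Both calls were also lost in deposited TPM (0.190 at DIV2, with the DIV4 value below that) and on the compared libraries only (0.0874 and 0.112). Ccnd1, the cyclin D1 gene, was lower at DIV2 and DIV4 than at OPC in both genotypes; it shares 22.3% of its 31-base words with other genes and is uncertain.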

How the data were processed

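Strand-specific total RNA libraries were made after removal of ribosomal RNA, per the labels' protocols. The authors deposited TPM per transcript for 18 libraries; STAR, Picard and the build mm10 are named in the submitters' processing notes, and the quantifier and annotation are not given in the sources used here. TPM keeps no read depth, so the depth is unknown and no counting error can be given. The labels name no batch or date.

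TPM of 93666 transcripts (96.6% found in GENCODE M21) were summed by symbol to 38046 genes, with 25 date-like names restored, and rescaled by the median of ratios over 11432 genes. Genes with a mean of at least 1 (12462) were tested on log2(rescaled TPM + 1) with limma 3.58.1 in R 4.3.3, with 1 mean per group, a trended empirical Bayes fit over 18 libraries and Benjamini-Hochberg adjustment, and were called at an adjusted p under 0.05. The fit took the 18 libraries as independent, although each clone gave 1 at each stage. The clone as a replicate block is the alternative that uses the pairing. Fold changes on this scale understate the change of low genes. The 11 comparisons were repeated under 16 alternatives, 2 of them (the most abundant transcript of each feedback gene, and coding transcripts only, set to equal coding totals) chosen after seeing the data. Genes sharing at least 10% of their 31-base words with other genes were called uncertain. On data simulated for null against control at DIV4 (12462 genes), 54.0% of genes changed by 1 on the log2 scale and 86.0% of those changed by 2 were recovered, with 4 false calls. The simulated libraries were independent, without the pairing by clone or the composition of the control OPC libraries. These rates therefore do not apply to comparisons that involve OPCs, or to the feedback genes alone.

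Replicates are separate clones. A clone is the same cell line at each stage and so pairs its libraries. Deviations from the group means correlated at 0.056 to 0.309 on average within a clone. Between clones the averages were -0.153 to -0.027. Deviations from a group mean cancel out, so these negative values follow from the positive ones within clones and are no separate evidence.

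The feedback genes and all lists were chosen with earlier results of these data known. By rule the text names the 10 feedback genes, the 5 genes most correlated with Axin2, Thap1, cell type markers and, from each pathway list, up to 4 genes called between genotypes at DIV2 or DIV4 or, where none was called, the gene with the highest mean. Pathway genes called only at OPC, Ccnd1 and Wnt3 were chosen after their values were seen.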

Additional observations from a re-analysis of the deposited data

Results flagged for a closer look

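In the reported fit the change of Axin2 from OPC to DIV4 differed between genotypes. The interaction, null minus control, was 1.18 on the log2 scale (limma, adjusted p = 0.0458). This call was kept with a pseudocount of 0.1, with quantile normalization, and without control D7, control D3 or the control D3 OPC library. Every other alternative with a value lost it, among them the clone as a replicate block (adjusted p = 0.0617). The interaction was 0.67 with the most abundant transcript (adjusted p = 0.206) and -0.15 in deposited TPM (adjusted p = 0.717). Without a null clone the adjusted p was 0.155 to 0.296. The change of Fzd3 over the same interval also differed, with an interaction of -1.26 (limma, adjusted p = 0.0101), which 14 of 16 alternatives kept. Mean Fzd3 was 9.11 rescaled TPM in control OPCs and 22.2 at DIV4, and 10.2 in null OPCs and 9.73 at DIV4.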

How the results depend on the processing

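Of 1029 single-gene values under alternatives, 868 kept direction and call, 62 kept direction and lost the call, 29 kept direction and gained it, and 70 changed sign, 62 of these for changes called neither in the reported analysis nor in the alternative. In deposited TPM 18 changed sign. For null against control at OPC these were Axin2 (0.36), Apcdd1 (0.64), Nkd1 (0.68), Znrf3 (0.80), Csnk1a1 (1.66) and Tcf7l2 (1.09). From control OPC they were Apcdd1 (1.05) and Znrf3 (1.10) to DIV2 and Znrf3 to DIV4 (1.52), and from null OPC Apcdd1 to DIV2 (0.07) and Znrf3 to DIV4 (0.34). Among interactions they were Axin2 (-0.74), Apcdd1 (-0.98), Nkd1 (-0.85) and Znrf3 (-0.51) at DIV2 and Axin2 (-0.15), Nkd1 (-0.92) and Znrf3 (-1.18) at DIV4. On that scale the median of all genes was 1.50 higher in null than in control OPCs.

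The coding-only setting also replaced the rescaling by equal coding totals. All listed transcripts of Nkd1 and Znrf3 are coding, so for them only the scale changed. With coding transcripts only, 9 values changed sign: Nkd1 at OPC (0.11) and in the interactions at DIV2 (-0.18) and DIV4 (-0.17), Znrf3 from OPC to DIV4 in control (0.21) and null (0.29), Wls (0.01), Fzd8 (0.04) and Csnk1a1 (0.07) between genotypes at DIV4, and Tcf7l2 at OPC (0.12). With the most abundant transcript Nkd1 did so at OPC (0.03) and in the interactions at DIV2 (-0.07) and DIV4 (-0.21), and with a pseudocount of 0.1 in the latter (-0.16). With quantile normalization it was Axin2 from control DIV2 to DIV4 (-0.06), Kremen1 at OPC (-0.02) and Csnk1a1 between genotypes at DIV4 (0.04). Without the control D3 OPC library it was Nkd1 from control OPC to DIV4 (-0.10), the DIV4 interaction of Znrf3 (-0.00), and Kremen1 (-0.15) and Tcf7l2 (0.01) at OPC.

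Leaving out 1 clone at a time turned 22 uncalled changes. Between genotypes the ranges were, at OPC, -0.49 to 0.31 for Nkd1, -0.13 to 0.58 for Wnt7b, -0.15 to 0.33 for Kremen1 and -0.29 to 0.04 for Tcf7l2. At DIV2 they were -0.38 to 0.02 for Axin2, -0.53 to 0.20 for Apcdd1 and -0.25 to 0.31 for Nkd1. At DIV4 they were -0.23 to 0.09 for Nkd1, -0.45 to 0.06 for Znrf3, -0.02 to 1.32 for Wnt7b, -0.20 to 0.11 for Wls, -0.21 to 0.11 for Fzd8 and -0.18 to 0.08 for Csnk1a1. In control clones Axin2 ranged from -0.11 to 0.54 from OPC to DIV2 and from -0.06 to 0.21 from DIV2 to DIV4, and from OPC to DIV4 Apcdd1 ranged from -0.29 to 0.77, Nkd1 from -0.07 to 0.75 and Znrf3 from -0.75 to 0.19. In null clones Znrf3 ranged from -0.15 to 0.07 from OPC to DIV4. Interactions ranged from -0.04 to 0.31 for Nkd1 at DIV2, and at DIV4 from -0.48 to 0.34 for Nkd1 and -0.21 to 0.72 for Znrf3.

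The count of feedback genes called at OPC between genotypes fell from 1 to 0 with the compared libraries only, the most abundant transcript or coding transcripts only. In deposited TPM it stayed at 1, but the gene was Znrf3, higher in null (0.80, limma adjusted p = 0.0228), where 81.0% of all genes were called. The count from control OPC to DIV2 went from 0 to 3 in deposited TPM, 1 with the most abundant transcript and 2 with coding transcripts, and that from control OPC to DIV4 from 0 to 4, 1 and 1. From null OPC to DIV2 it went from 1 to 2 in deposited TPM, with quantile normalization, no filter, the compared libraries only or coding transcripts only, and from null OPC to DIV4 from 2 to 1 with no filter. From null DIV2 to DIV4 it went from 0 to 2 with the compared libraries only and to 1 with the clone as a replicate block. The DIV4 interaction count went from 1 to 0 with no filter, the compared libraries only, the replicate block, the most abundant transcript or coding transcripts only. That count stayed at 1 in deposited TPM, with Znrf3 (-1.18, limma adjusted p = 0.0213) in place of Axin2, where 73.5% of all genes were called. Leaving out 1 clone at a time gave counts of 0 to 1 at OPC between genotypes, for both control changes from OPC and for the DIV4 interaction, 0 to 2 for null OPC to DIV2 and null DIV2 to DIV4, and 1 to 2 for null OPC to DIV4. The cause of these differences was not tested. The replicate block changed no call of a feedback gene but Axin2 in the DIV4 interaction and Apcdd1 from null DIV2 to DIV4. A filter at a mean of 5 left no feedback gene and gave no value. With 3 clones a group and no depth, small changes in low genes were not detectable.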
